A study of Mus musculus with 1920 samples.

Results

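The cells described here are microglia from the spinal cord of untreated CD1 mice aged 16 weeks, divided by whether they carried Mbp transcripts. They were chosen by 2 rules. The first kept wells that had 20000 gene counts or more and 500 genes or more, with less than 25% of counts mitochondrial and less than 50% from spike-ins. The second called a kept cell Mbp-carrying when its Mbp level was 100 or more in CPM, that is, scaled to the cell's gene counts without spike-ins. Of 190 spinal cord wells 170 were kept, of 1644 kept cells in the series. Of these 170 cells 17 were Mbp-carrying (5, 4, 4 and 4 in mice 1 to 4) and 153 were other cells (38, 41, 37 and 37). Mbp itself is therefore a description and was left out of every test.

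The study sorted microglia singly from 6 regions of untreated mice, from the facial nucleus after axotomy of the facial nerve, and from corpus callosum during cuprizone demyelination and remyelination. Wells were made into Smart-seq2 libraries, which cover whole transcripts and count reads without molecular identifiers. Per the labels, animals were perfused, cells were enriched on a Percoll gradient and stained for CD11b, CD45, Ly6C, Ly6G and CD206, and both classes passed the same sort. All spinal cord cells came from 1 plate, which they shared with corpus callosum. The labels number 4 replicates, whereas 3 to 4 mice per condition are given in the design text, so n may be below 4.

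Myelin is the layered membrane that oligodendrocytes wrap around axons, and it is abundant in spinal cord white matter. Mbp encodes myelin basic protein, which holds the cytoplasmic faces of the membrane together, and its mRNA is transported out along the processes to the growing sheath and translated there. Mobp mRNA is transported in a similar way. Microglia are the resident macrophages of the tissue and take up myelin, among other debris.

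The carrying cells spanned a wide range of Mbp. The lowest held 118 CPM (32 counts), the median was 829 CPM and the highest held 28266 CPM (6933 counts). The cell just outside the threshold held 79.6 CPM (9 counts) and the next below it 14.4 CPM (5 counts). Above the threshold the cells fell into a group of 5 and a group of 12. The 5 cells held 28266 CPM (mouse 2), 19558 CPM (mouse 1), 14380 CPM (mouse 3), 13416 CPM (mouse 4) and 12701 CPM (mouse 2), so each mouse gave at least 1 of them. The highest of the other 12 held 3062 CPM. In the top cell Mbp made up 2.83% of all gene counts.

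**Figure D1:**
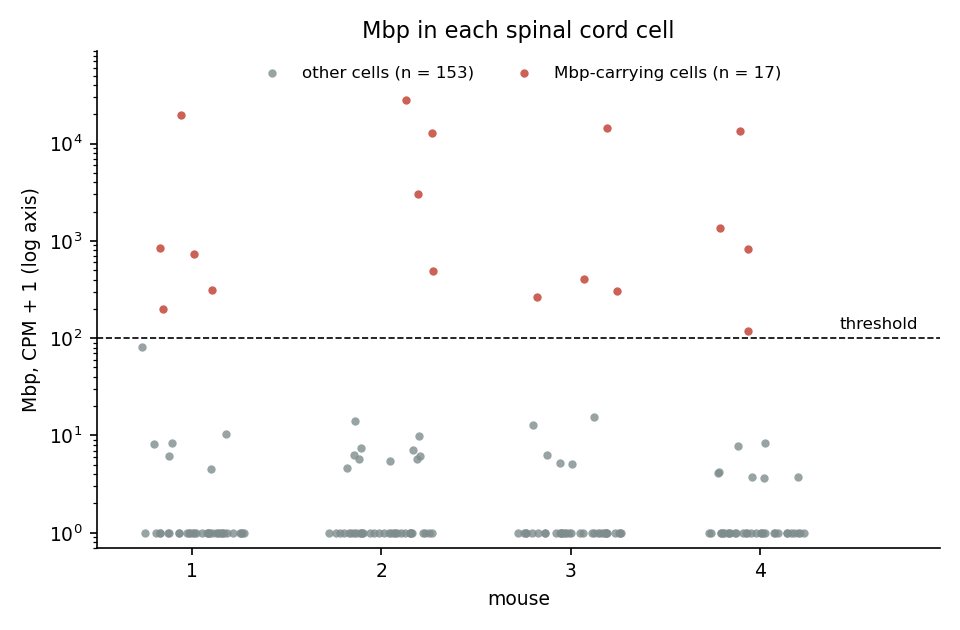
Mbp in each of the 170 spinal cord cells, as CPM + 1 on a log axis, by mouse; red points are the 17 carrying cells and grey points the 153 other cells, spread sideways only to separate them. The dashed line is the threshold of 100 CPM, and each mouse has at least 1 cell above 10000 CPM.

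The carrying share was 11.6%, 8.89%, 9.76% and 9.76% in mice 1 to 4, a mean of 10.0% ± 1.16 (SD, n = 4; exact 95% binomial interval of the pooled share 5.93% to 15.5%, counting error only). It varied little between mice. At least 1 Mbp read was present in 45 of the 170 cells (26.5%). The 20 wells labelled negative, 4 of them on the same plate, held no Mbp read, at a median of 524.5 gene counts. Among 34 kept cells in wells directly adjoining the 5 cells with the most Mbp, 8 had an Mbp read, with 850 CPM as the highest value. Corpus callosum, the other group on the plate and a white matter tract, had a similar share (11.6%, exact interval 7.21% to 17.3%), but its highest cell held 2027 CPM. Over the other 9 groups of the series, 1 of 1474 kept cells reached 10000 CPM, a remyelination cell at 19296 CPM.

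Depth per cell overlapped between the classes. Median gene counts per cell in mice 1 to 4 were 262393, 237106, 267293 and 299402 in carrying cells and 170697, 192019, 224183 and 340236 in other cells. The mean difference was 34765 ± 55170 counts (SD, n = 4; exact sign-flip permutation test, two-sided, p = 0.25), and 0.125 is the smallest p that 4 mice allow. Carrying cells had a median of 2695, 2763, 2691 and 3404 detected genes, against 2647, 2663, 3021 and 2716 in other cells (mean difference 126 ± 421, SD, n = 4; exact p = 0.625). That difference turned to -31.8 with means over cells and to -60.8 without mouse 4. Median spike-in shares differed by -0.581 ± 1.73 percentage points (SD, n = 4; exact p = 0.625). Median mitochondrial shares differed by 0.567 ± 0.882 percentage points (SD, n = 4; exact p = 0.5). Under 1000 genes were detected in 3 of the 17 carrying cells (17.6%) and in 1 of the 153 other cells (0.654%). Those 3 cells had spike-in shares of 35.1% to 37.2%, and their Mbp levels were 198, 1354 and 3062 CPM.

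The homeostatic microglia genes were read in all 17 carrying cells. Of 12 such genes, each carrying cell had reads of at least 9 (median 11), as other cells did (median 11, lowest 8). P2ry12, a purinergic receptor that steers microglial processes, was summed to 9124, 4367, 9443 and 3135 CPM in carrying cells of mice 1 to 4 and to 5404, 6413, 5092 and 7796 CPM in other cells. The classes overlapped, with carrying cells higher in 2 of 4 mice. Csf1r, the growth factor receptor on which microglia depend, averaged 7733 ± 1356 CPM in carrying and 7248 ± 874 CPM in other cells (SD, n = 4). The 12 genes together averaged 53610 ± 9158 CPM against 52440 ± 5587 CPM (SD, n = 4). None of the 12 passed the test. Among the 5 cells with the most Mbp, P2ry12 ranged from 1667 to 8082 CPM and Csf1r from 3049 to 11440 CPM. Summed over the 12 genes, single carrying cells held 30600 to 85860 CPM (median 48600) and other cells 572 to 76870 CPM (median 52090). The carrying cell at 30600 CPM held almost as much, 30530 CPM, of the astrocyte list.

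The test of all genes summed the cells of each class within each mouse and compared the classes with the mouse as a block. Carrying sums held 966796 to 1275963 counts from 4 or 5 cells. Other sums held 6924020 to 12424283 counts from 37 to 41 cells. Of 10013 genes tested, 2 were higher in carrying cells (0.0200%; edgeR quasi-likelihood test, Benjamini-Hochberg adjusted p under 0.05) and none was lower, with 1305 genes at an unadjusted p under 0.05, 21 of them higher. DESeq2 called 22 higher and 2481 lower. In single cells many genes are read in a few cells only, and 35.0% to 45.3% of the tested genes had no count in the carrying sum of a mouse against 1.20% to 2.55% in its other sum. The median fitted log2 fold change over all tested genes was -2.72 (-2.49 with upper-quartile scaling). When each carrying cell was set against the 1 other cell of its mouse nearest in gene counts, the median was -0.06 over 4782 genes, and 3 genes were higher (0.0627%) and none lower. With 108 genes at an unadjusted p under 0.05 there, 63 were higher. No lower direction is drawn from the fitted values below. Over the 4308 genes read in at least 20% of cells the median was -1.06. The -2.72 is thus no baseline for lists of widely read genes, and a list median above it is not read as a rise. Counts of called list members are to be read against the 0.0200% called over all genes.

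Mobp, which encodes the myelin-associated oligodendrocyte basic protein, was 1 of the 2 genes called. Mobp (ENSMUSG00000032517, GRCm38 chromosome 9, 120149742 to 120181484) was summed to 1503, 2765, 76.6 and 320.5 CPM in the carrying cells of mice 1 to 4. In the other cells of the same mice it was 0.433, 0.752, 3.49 and 4.91 CPM. The carrying cells were higher in 4 of 4 mice and the classes did not overlap (means 1166 ± 1234 and 2.40 ± 2.17 CPM, SD, n = 4). The fitted log2 fold change was 8.47 ± 0.96 (SE; edgeR adjusted p = 3.33e-14). Its adjusted p ranged from 9.01e-22 to 1 over 20 alternative settings that tested it, and it passed in 15 of them. The 5 others were any Mbp read as carrying (1), limma (0.374), cells under 1000 genes left out (0.371), 1 cell of mouse 1 left out (0.119, described below) and no replicate block (0.0552). Leaving out a mouse moved the fitted change to between 6.71 (without mouse 2; 6.72 without mouse 1) and 10.17 (without mouse 3; 9.99 without mouse 4), and Mobp passed each time. Each of these shifts was larger than the SE, so the SE and adjusted p of the fit do not measure the spread between mice.

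These Mobp reads lay in few cells. The 5 cells with the most Mbp held 3470, 7310, 262, 1123 and 6407 CPM of Mobp, in order of falling Mbp. Of the other 12 carrying cells, 1 had a Mobp read, at 3.69 CPM. Among the 153 other cells 11 had a Mobp read, and the highest held 178 CPM. Across the 17 carrying cells Spearman's rho of Mobp and Mbp was 0.64, a description over cells that share 4 mice and 1 plate and were chosen by Mbp. It mainly restates that the 5 cells had Mobp reads and most of the 12 had none. Within the 5 cells Mobp did not follow the order of Mbp. Of the 28 other cells with an Mbp read below the threshold, 2 had a Mobp read, and of the 125 with none, 9 did. Without the 5 cells above 10000 CPM of Mbp, Mobp fell below the low-count filter and no gene was called, with 1968 genes at an unadjusted p under 0.05.

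**Figure D2:**
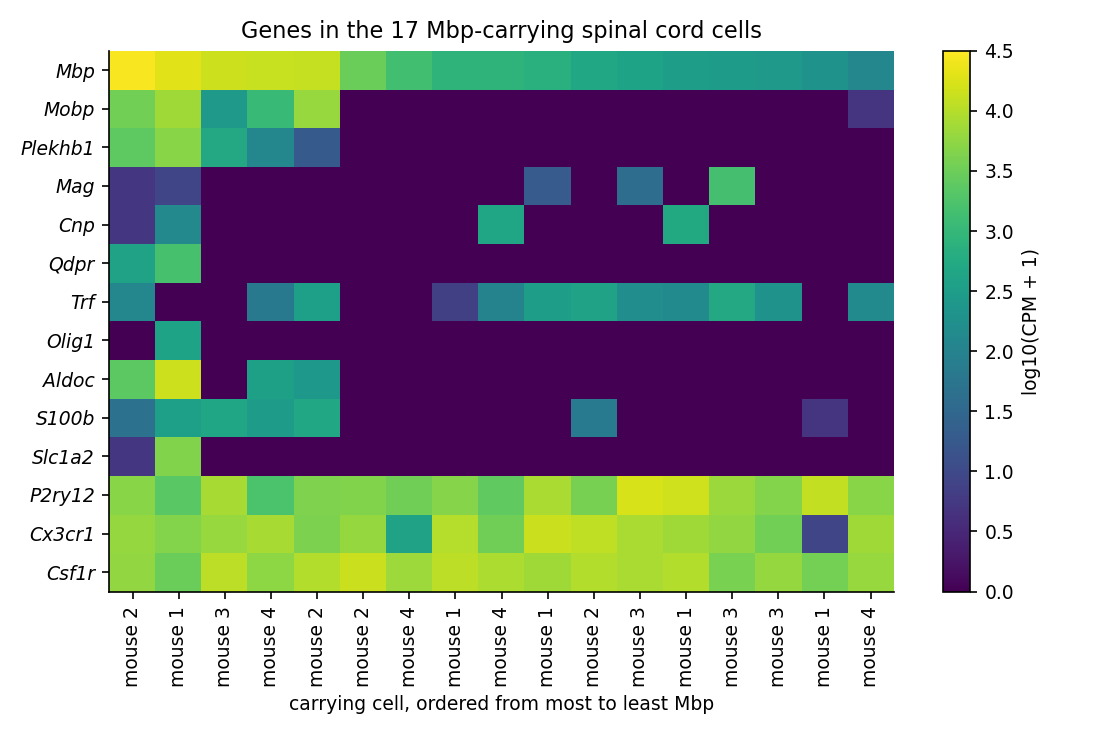
Levels of 14 genes in the 17 carrying cells, as log10(CPM + 1), with cells ordered from most to least Mbp and labelled by mouse. The 5 cells on the left hold Mobp, Plekhb1 and S100b, while P2ry12, Cx3cr1 and Csf1r are read across all 17.

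Aldoc was the other gene called, and it belongs to the astrocyte list. It encodes the brain form of the glycolytic enzyme aldolase, which is abundant in astrocytes. Aldoc (ENSMUSG00000017390, chromosome 11, 78322968 to 78327781) was summed to 2991, 665, 0 and 102.5 CPM in carrying cells of mice 1 to 4 and to 19.2, 0.125, 0 and 0 CPM in other cells. It was higher in carrying cells in 3 of 4 mice, and both classes of mouse 3 were at 0. The fitted log2 fold change was 9.85 ± 1.12 (SE; edgeR adjusted p = 1.14e-14), a value that depends on the prior count where a class is at 0. Its adjusted p ranged from 3.25e-23 to 0.374 over the 16 alternative settings that tested it, and the 2 that did not pass were limma and the fit with no replicate block (0.0880). Of all its counts in carrying cells, 83.4% came from 1 cell of mouse 1, which held 14550 CPM. The others with a read held 2336, 360 and 246 CPM. Without mouse 1, Aldoc did not pass the low-count filter and was not tested. Without mouse 2 its fitted change was 8.55, and without mouse 4 it was 8.80. The shift without mouse 2 was larger than the SE, so the SE and adjusted p of Aldoc do not measure the spread between mice either.

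That cell of mouse 1 had the second highest Mbp, and it differed from the rest in several markers. It had reads of 10 of 12 astrocyte genes, 10 of 14 myelin sheath genes and 7 of 20 oligodendrocyte genes outside the sheath. It held 4436 CPM of Slc1a2, the main astrocyte glutamate transporter, and 5526 CPM of the matrix protein gene Sparcl1. Its P2ry12 level was 2241 CPM and its mitochondrial share 17.6%, the highest of the 17. As with 1 cell in mouse 3, it was the only carrying cell of its mouse with a Mobp read. Without it the carrying cells of mouse 1 were at 0. Without it no gene was called (1439 genes at an unadjusted p under 0.05), Aldoc fell below the filter, and Mobp had a fitted log2 fold change of 5.30 (edgeR adjusted p = 0.119). The part of astrocyte or oligodendrocyte RNA in the result was not tested.

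**Figure D3:**
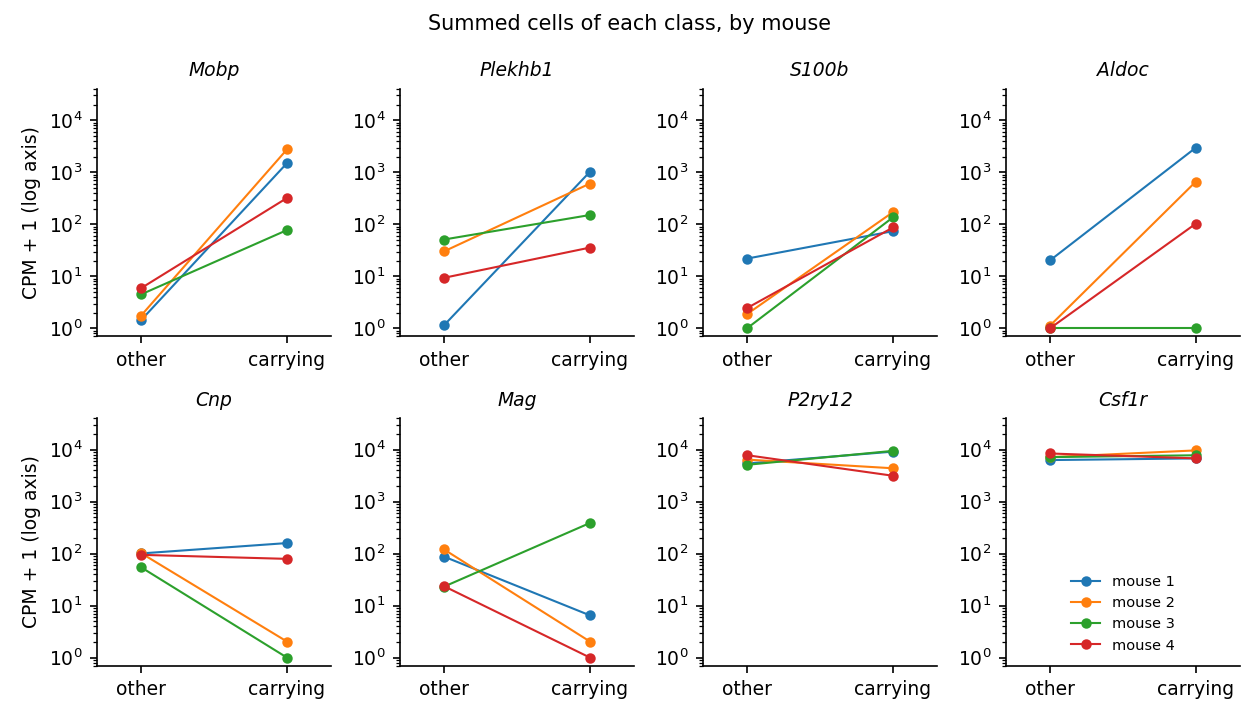
Summed level of 8 genes in other and carrying cells of each mouse, as CPM + 1 on a log axis, with a line joining the 2 classes of a mouse. Mobp, Plekhb1 and S100b lines go up in 4 of 4 mice, Aldoc in 3, and Cnp and Mag lines go both ways.

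The remaining members of the myelin sheath list, 14 genes in all, were mostly few or absent. Of the 14, 5 passed the low-count filter and 1, Mobp, was called. The median fitted log2 fold change of those 5 was 2.501, beside -2.72 over all tested genes, with 3 fitted above 0 and Mag (-4.42) and Cnp (-3.16) below. Members low in other cells pass the filter largely through their carrying counts, so this median is not read as a rise. Summed over the list, carrying cells held 3151, 3404, 626 and 465 CPM in mice 1 to 4 and other cells 323, 260, 149 and 148 CPM. The classes did not overlap, but 95.7% of the mouse 1 counts came from the cell described above. Without that cell mouse 1 was at 170.7 CPM, below its other cells. In mouse 3 the carrying cells highest for the list held 1471 CPM, all of it Mag, and 816 CPM. In mouse 4 they held 1245 and 611 CPM. In the 12 carrying cells with less Mbp the list summed to 233 CPM, within the range of the other cells' sums.

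Plekhb1, a membrane-bound protein gene found in myelin and photoreceptors, was summed to 1026, 608, 150 and 34.7 CPM in carrying cells of mice 1 to 4 and to 0.144, 29.2, 50.04 and 8.37 CPM in other cells. It was higher in carrying cells in 4 of 4 mice, though the classes overlapped; without the mouse 1 cell described above, carrying cells of mouse 1 had no Plekhb1 read. The fitted log2 fold change was 3.76 ± 1.31 (SE; edgeR adjusted p = 0.140), which did not pass. Against 1 other cell per carrying cell it did, with a log2 fold change of 11.69 ± 2.35 (SE, edgeR adjusted p = 0.00109). That value depends on which other cells were picked. All Plekhb1 reads in carrying cells lay in the 5 cells with the most Mbp. Plekhb1 was also read in 12 other cells, of which the highest held 3990 CPM.

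Mag, an adhesion molecule of the inner myelin membrane, was 5.49, 1.03, 387 and 0 CPM in carrying and 86.5, 119, 22.1 and 22.6 CPM in other cells (edgeR adjusted p = 0.503). A single cell of mouse 3, at 308 CPM of Mbp, held 95.2% of its counts. Cnp, an enzyme of the myelin cytoplasm, was 158, 1.03, 0 and 78.2 CPM in carrying and 99.7, 101.2, 53.7 and 93.6 CPM in other cells (edgeR adjusted p = 0.667). Mag was read in 5 of 17 carrying and 33 of 153 other cells, and Cnp in 4 and 40.

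Of the other sheath genes, Opalin and Pllp had no count in carrying cells. Mog, the outermost myelin glycoprotein, Mal, Cldn11, Ermn, Tspan2 and Nfasc each had reads in 1 of the 17. None of these 8 genes passed the low-count filter.

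Of 20 oligodendrocyte genes outside the sheath, 5 passed the filter and none was called, with a median fitted log2 fold change of -2.52 against -2.72 over all genes. Their summed level was 771, 330, 239 and 314 CPM in carrying cells and 420, 367.5, 357 and 356 CPM in other cells. It was 837 CPM over the 5 cells with the most Mbp (412.5 CPM without the mouse 1 cell described above) and 241 CPM over the other 12. Olig1, Olig2 and Sox10, transcription factors of the oligodendrocyte lineage, were read in 1 carrying cell each. Trf, the transferrin gene, was read in 12 of 17 carrying and 128 of 153 other cells, at 150 ± 76.0 and 202 ± 22.5 CPM (SD, n = 4; edgeR adjusted p = 0.859). Qdpr, a dihydropteridine reductase, was 323, 99.3, 0 and 0 CPM in carrying and 70.3, 32.0, 45.2 and 72.5 CPM in other cells (edgeR adjusted p = 0.809). The other tested members were Myrf, a transcription factor of myelination, the small heat shock gene Cryab and the deacetylase gene Sirt2, which were read in 2, 2 and 3 carrying cells (edgeR adjusted p 0.477, 0.827 and 0.757).

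With each cell thinned to 20000 gene counts, Mobp was the 1 gene of these 34 whose share of cells with a read was higher in carrying cells of 4 of 4 mice. Those thinned Mobp reads lay in 5 carrying cells, and the same count over all genes was not made. Without thinning there were 3, among them Mobp and Plekhb1. The unthinned share for Mobp averaged 36.3% in carrying cells (exact sign-flip permutation test, two-sided, p = 0.125, the smallest that 4 mice allow). No share could pass 0.05 after adjustment over the 34 genes.

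Markers of 10 other cell types summed to at most 800.2 CPM in the carrying class. Some lists were higher in carrying cells of single mice, for example endothelial and pericyte genes in mouse 2 (207.9 against 52.8 CPM). Border macrophage genes summed to 0 to 9.31 CPM in its 4 sums (6 of 8 genes at 0, among them Mrc1, which encodes CD206). Monocyte genes summed to 0 to 69.5 CPM (5 of 8 at 0), neutrophil genes to 0 to 51.7 CPM (7 of 8 at 0) and T and NK cell genes to 0 to 3.98 CPM (6 of 8 at 0). B cell genes, of which Cd79b and Ms4a1 were among those at 0, summed to 35.2 to 800.2 CPM, against 674 to 1042 CPM in other cells. Nearly all of that was Ighm, the IgM heavy chain, at 316 ± 356 against 765 ± 168 CPM (SD, n = 4). Erythroid genes summed to 0 to 25.1 CPM, endothelial and pericyte genes to 5.21 to 207.9 CPM against 52.8 to 169.7 CPM, and neuronal genes to 0.869 to 71.4 CPM against 5.88 to 184.7 CPM. Schwann cell genes averaged 320 ± 272 CPM against 541.5 ± 121 CPM (SD, n = 4), with 4 of 6 genes at 0 in carrying cells. Oligodendrocyte precursor genes summed to 0 to 64.3 CPM against 64.7 to 126.7 CPM. These 10 lists had 15 tested members in all, and 3 lists had none, so that no called gene among them says little beside the 0.0200% called over all genes.

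The astrocyte list had a called member. Its 12 genes summed to 6414, 1291, 148 and 225 CPM in carrying cells of mice 1 to 4 and to 211, 107, 141 and 216 CPM in other cells. The mouse 1 cell gave 97.9% of the mouse 1 counts, and without it mouse 1 was at 170.7 CPM, below its other cells. Of the 4 members that passed the filter, 1 was called, and their median fitted log2 fold change was 3.96. Gfap was at 1.28 and Slc1a3 at -2.05. Aldoc and S100b pass the filter largely through their carrying counts, so this median is not read as a rise. In mice 3 and 4 the carrying level lay near that of other cells, and in the 12 carrying cells with less Mbp the list summed to 116 CPM. S100b, a calcium-binding protein of astrocytes and mature oligodendrocytes that was singled out after its values were seen, was 72.9, 171, 135 and 86.0 CPM in carrying cells. In other cells it was 20.9, 0.877, 0 and 1.45 CPM. The classes did not overlap (without the mouse 1 cell, carrying cells of mouse 1 were at 0.987 CPM), and S100b did not pass (fitted log2 fold change 6.64 ± 3.09, SE; edgeR adjusted p = 0.327). All 5 cells with the most Mbp had S100b reads, at 48.9 to 488.8 CPM, as did 2 of the other 12.

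**Figure D4:**
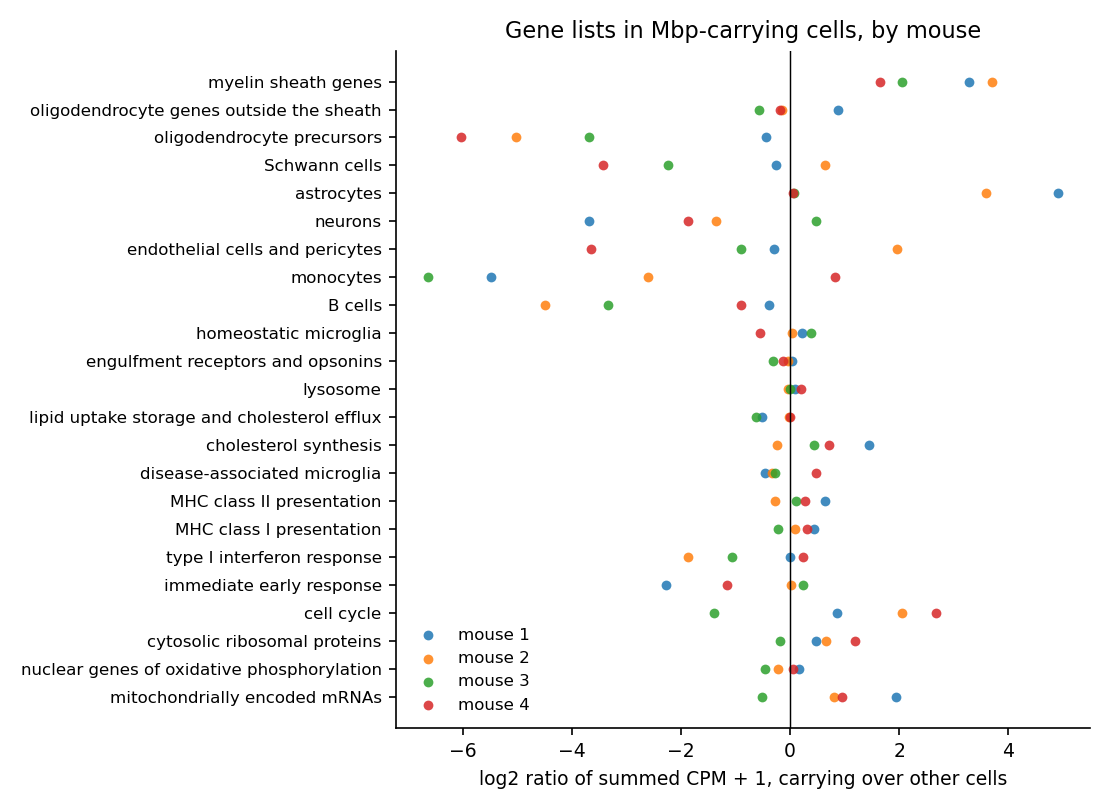
Log2 ratio of the summed CPM + 1 of each gene list, carrying over other cells, for each mouse (points), for lists that average at least 50 CPM in other cells. Myelin sheath genes lie above 0 in 4 of 4 mice (in mouse 1 through a single cell), while lysosome and homeostatic microglia genes lie close to 0.

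Genes by which microglia take up and degrade material gave no call, which at 0.0200% called over all genes is no result about them. The 34 receptors and opsonins of engulfment averaged 21650 ± 1808 CPM in carrying and 23480 ± 2482 CPM in other cells (SD, n = 4). Of the 27 tested none was called (median fitted log2 fold change -0.50). Against 1 other cell per carrying cell that median was 0.10, beside -0.06 over all genes. C1qc, a chain of the opsonin C1q, was 1847, 1214, 1843 and 2632 CPM in carrying cells and 2183, 3326, 3369 and 2714 CPM in other cells (edgeR adjusted p = 0.302). Trem2, a receptor for lipids, averaged 835 ± 166 and 1268 ± 312 CPM. All 34 lysosome genes were tested and none was called (median -0.29, and 0.16 against 1 other cell per carrying cell). Their sum averaged 75200 ± 7665 CPM in carrying and 71550 ± 4216 CPM in other cells. Ctsd, an aspartic protease of the lysosome, averaged 6375 ± 2136 and 6716 ± 1216 CPM, and Lgmn, a cysteine protease there, 8043 ± 486 and 7328 ± 537 CPM.

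For lipid handling the counts of calls are likewise at the level of all genes. Genes of lipid uptake, storage and efflux averaged 3574 ± 404 CPM in carrying and 4369 ± 579 CPM in other cells (0 of 16 tested called, median -1.63). Cholesterol synthesis genes averaged 1176 ± 471 and 737 ± 70.1 CPM (0 of 19 called, median -2.13), and their members went both ways. Dhcr7, the last enzyme of a branch of the pathway, was 285, 133, 84.6 and 709.6 CPM in carrying and 103, 89.96, 47.8 and 19.9 CPM in other cells (edgeR adjusted p = 0.531). Ebp, an isomerase upstream of it, was 38.4, 1.03, 76.6 and 88.6 CPM against 151, 111, 178 and 118 CPM (edgeR adjusted p = 0.659). Of the 23 genes of this list 2 were higher in carrying cells of 4 mice and 6 lower. Among the 45 cytosolic ribosomal protein genes 1 was higher and 10 lower in 4 mice. With so few carrying cells, many tested genes have no count in a mouse's carrying sum. The share over all genes was not computed, so these counts are not read as a result.

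The genes that microglia raise in disease summed to 20470 ± 4355 CPM in carrying and 22460 ± 2961 CPM in other cells (SD, n = 4). Of 22 tested 0 were called, with a median of -0.47. Against 1 other cell per carrying cell the median was 0.03, beside -0.06 over all genes. MHC class II genes averaged 17490 ± 3613 and 15160 ± 2010 CPM, and MHC class I genes 6324 ± 468 and 5728 ± 965 CPM, with 0 of 7 and 0 of 12 called. Type I interferon genes averaged 388.5 ± 172 and 579 ± 229 CPM (0 of 12 called), and 15 of the 25 had no count in carrying cells. Immediate early genes averaged 1033 ± 421 and 1934 ± 1336 CPM (0 of 11 called), and cell cycle genes 992 ± 672 and 357 ± 142 CPM (0 of 16 called). Cytosolic ribosomal protein genes averaged 3839 ± 1088 and 2572 ± 242 CPM (0 of 38 called). Nuclear genes of oxidative phosphorylation averaged 3503 ± 738 and 3745 ± 306 CPM (0 of 40 called).

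Mitochondrially encoded mRNAs summed to 32780, 18670, 6554 and 17760 CPM in carrying cells of mice 1 to 4 and to 8528, 10620, 9347 and 9162 CPM in other cells. They were higher in 3 of 4 mice, and 0 of 7 tested was called. mt-Nd1, a subunit of complex I, was 9573, 5369, 1961 and 4574 CPM against 2196, 2415, 2487 and 2113 CPM. Its fitted log2 fold change was 1.02 ± 0.25 (SE; edgeR adjusted p = 0.118). It passed in 3 of 23 alternative settings (adjusted p 0.00153 to 1), among them the fit without mouse 3 (adjusted p = 0.00153). The 5 cells with the most Mbp held 40120 CPM of these mRNAs together and the 12 others 10110 CPM. The mouse 1 cell described above gave 82.0% of the mouse 1 counts. Without it the level over the 4 remaining cells was 19470 CPM, mouse 1 was at 7423 CPM, below its other cells, and the fitted change of mt-Nd1 was 0.62 (edgeR adjusted p = 0.226).

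Against 1 other cell per carrying cell, Cst3 was also called. It encodes cystatin C, a secreted inhibitor of cysteine proteases, and lies outside the gene lists. It was summed to 59650, 44160, 40580 and 64110 CPM in carrying and 36600, 42800, 38720 and 49860 CPM in other cells, higher in 4 of 4 mice. The matched log2 fold change was 0.70 ± 0.13 (SE; edgeR adjusted p = 7.97e-05), while with all other cells it was 0.28 ± 0.08 (edgeR adjusted p = 0.140). Without cells under 1000 genes the direction turned, to -0.41 ± 0.29 (edgeR adjusted p = 0.569). The carrying cells of mice 4 and 1 with the fewest genes (843 and 844) held 152400 and 138600 CPM of Cst3, above the 112600 CPM of the highest other cell.

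The same split was made in the other 5 untreated regions, where 57 of 845 kept cells carried Mbp. The fit took 13 region replicates with at least 3 cells of each class. The design text says that regions came from the same mice, so those replicates are not all separate animals and the p-values can be too small. No gene was higher, and 3691 of 9033 (40.9%) were lower in carrying cells (edgeR adjusted p under 0.05). With 1 other cell per carrying cell none of 3375 genes was called, with 87 at an unadjusted p under 0.05. The median fitted log2 fold change over all genes was -3.17 in the first fit and 0.01 in the second. The carrying effect differed between spinal cord and these regions for none of 9808 genes (0%; edgeR adjusted p under 0.05), with 389 at an unadjusted p under 0.05, and DESeq2 was not run on it.

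Mobp and Aldoc fell below the low-count filter in both of those fits, so their difference between spinal cord and the other regions was not tested. A Mobp read was present in 6 of 17 carrying spinal cord cells (35.3%, exact 95% interval 14.2% to 61.7%). In the other untreated regions 2 of 57 had one (3.51%, 0.428% to 12.1%). In the axotomy, demyelination and remyelination groups 10 of 57 did (17.5%, 8.75% to 29.9%). At least 100 CPM of Mobp was found in 5, 0 and 5 of these cells. The intervals cover counting error only, over cells that share mice, and no difference between regions is drawn from them. Mbp also differed, since the highest carrying cell of the other untreated regions held 2390 CPM of it. Aldoc was read in 4 of 17 carrying spinal cord cells, 2 of 20 in corpus callosum, 1 of 13 in hippocampus and none in facial nucleus, cerebellum or cortex. The remyelination cell with 19296 CPM of Mbp had no Mobp read, whereas all 5 spinal cord cells above 10000 CPM had one.

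**Figure D5:**
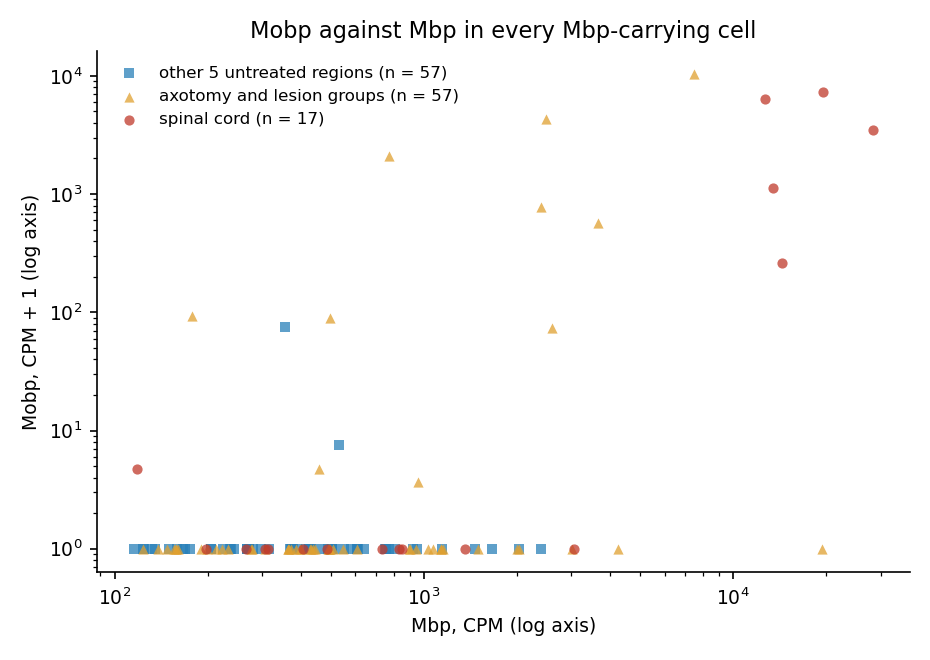
Mobp (CPM + 1) against Mbp (CPM), both on log axes, in every Mbp-carrying cell of the series; red circles are spinal cord, blue squares the other 5 untreated regions and yellow triangles the axotomy, demyelination and remyelination groups. The 5 spinal cord cells above 10000 CPM of Mbp all hold Mobp, and no cell of the other untreated regions reaches 100 CPM of it.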

How the data were processed

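The authors' deposited values are raw read counts for each gene in each well, as whole numbers without normalisation. Per the submitters' processing notes, STAR 2.5.2b did the alignment and featureCounts 1.5.1 the counting, on build GRCm38. Which annotation and strand setting were used is not given in the sources used here. Symbols and positions were looked up in GENCODE vM21 (48349 of 48709 identifiers found). The method keeps no strand, so reads of overlapping genes cannot be separated. Cells were sorted singly into wells per the labels, no doublet caller was run, and whether a well received more than 1 cell was not tested.

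Counts of kept cells were summed per mouse and class and tested with edgeR 4.0.16 in R 4.3.3 (TMM scaling, low-count filter of edgeR with 10 counts, 15 in total, robust quasi-likelihood fit, false discovery rate 0.05). DESeq2 1.42.0 and limma 3.58.1 were alternatives. Printed levels are unscaled CPM of the sums, and the SE is the fold change divided by the square root of its F statistic. Both classes of a mouse come from the same animal per the labels, so the mouse was a block. Same-mouse deviations from the class means correlated at 0.003, 0.036, 0.002 and -0.005. The scripts were tested on simulated data.

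The cells and gene lists were chosen with earlier results of these data known. The text names myelin and oligodendrocyte list members that passed the filter, called genes, and from each other list some of the 4 members with the highest level. S100b, Cst3 and other genes outside that rule were named with their values seen. Some genes of the lists are not reported here. No sequence is printed.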

Additional observations from a re-analysis of the deposited data

Results flagged for a closer look

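Among the 4 mice of a class, some values lay far from the other 3, as chance gives in about 1 of 20 groups of 4. The other cells of mouse 1 stood apart for Aldoc (19.2 CPM) and S100b (20.9 CPM). Mouse 4 stood apart in its carrying cells, with a median of 3404 detected genes and a median spike-in share of 5.85%.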

How the results depend on the processing

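The count of 2 called genes in spinal cord rests on few cells. It was 2503 with DESeq2, 7 with upper-quartile scaling, 1 with any Mbp read as carrying, 1 with thinned cells, 1 with the myelin and oligodendrocyte genes left out and 1 without cells under 1000 genes. It was 0 with genes read in 20% of cells, 0 with no replicate block, 0 with limma, 0 without the 5 cells with the most Mbp and 0 without the cell rich in Slc1a2. Leaving out the myelin genes removed Mobp itself, and the 20% setting tested neither Mobp nor Aldoc, so those 2 counts were bound to fall. Leaving out a mouse gave 1 to 8 calls (1 without mouse 1, 8 without mouse 3, 4 without mouse 4). In the other regions the 3691 calls became 67 with no replicate block, 6869 with at least 1 cell in each class, 5656 with DESeq2 and 0 with 1 other cell per carrying cell. The difference between spinal cord and the other regions gave 0 to 1 calls on leaving out a spinal cord mouse; the 1, Sdcbp, came without mouse 4. The carrying share of 10.0% was 8.82% at 200 CPM, 26.4% with any read and 11.8% after thinning. Mean rather than median spike-in shares differed by 1.81 percentage points, and unthinned reads gave 3 genes higher in 4 mice. For these changes the cause was not tested. The settings that leave out cells by Mbp, gene number or Slc1a2, and those with 1 other cell per carrying cell, were chosen after seeing the data. Mobp and Aldoc kept their direction in the 20 and 16 alternative settings that tested them. In the remaining settings they were left out or fell below a filter. Genes so low in other cells pass a filter largely through their carrying counts, so the kept direction is no support. Cst3, higher where called, was -0.41 without cells under 1000 genes, and mt-Cytb, mt-Rnr1 and mt-Rnr2, called without mouse 3, were -0.69, -0.13 and -0.28 without the 5 cells with the most Mbp. Ghitm, called lower with corpus callosum added, was 0.14 with any Mbp read. With 4 or 5 carrying cells per mouse, genes read in few cells could not be compared.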
